A study of Mus musculus with 6 samples.

Results

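The 9 genes described here, 6 Eph receptors (Epha1, Epha2, Epha4, Ephb2, Ephb3 and Ephb4) and 3 of their ephrin ligands (Efna1, Efnb1 and Efnb2), were picked by name as a set of cell contact signalling genes, out of 22 Eph and ephrin genes in the mouse and 42450 genes listed in the total RNA table. The cells were male mouse embryonic stem cells (ESC) of clone E14tg2a.4, the parental wild type (WT, 3 replicates), and the gene-trap line CG0630 derived from it, in which 1 Srrm2 allele is truncated by a trap cassette (Srrm2+/-, 3 replicates). Srrm2 encodes a large scaffold protein of the spliceosome, and the comparison asked how gene expression in ESC differs when its level is lowered. Both lines were grown on gelatin with leukemia inhibitory factor (LIF), in serum-free medium before collection, and received no other agent. The Srrm2+/- line is a single clone and was used at lower passage numbers than the WT cells, so that genotype, clone and passage cannot be told apart in these libraries.

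Eph receptors are the most numerous family of receptor tyrosine kinases. They bind ephrins that are held in the membrane of a touching cell, so that the signal needs contact between cells. Ephrin-A ligands are tethered by a lipid anchor and bind mainly EphA receptors. Ephrin-B ligands cross the membrane and bind mainly EphB receptors, with Epha4 as a receptor known to bind both kinds. Signalling runs both ways, as forward signalling into the cell that carries the receptor and as reverse signalling into the cell that carries the ephrin. In embryos, the family is known for cell sorting, tissue boundaries, axon guidance and the shaping of vessels.

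Estimated counts per library summed to between 54151532 and 69933465. Srrm2 itself was measured at 91.2, 98.3 and 97.7 CPM (estimated counts scaled to the size of the library, then normalised) in WT cells and at 62.3, 56.2 and 59.6 in Srrm2+/- cells, so that every Srrm2+/- library was below every WT library. It fell by 0.69 on the log2 scale (SE 0.05, edgeR adjusted p = 2.38e-05). Of 18905 genes tested, 25.3% passed an adjusted p of 0.05, 13.6% higher and 11.7% lower in Srrm2+/- cells. The 8 pluripotency markers summed to 3331 to 3528 CPM per kb of exon length in WT cells and to 2957 to 3043 in Srrm2+/- cells, with Nanog lower by 0.72 and Pou5f1 at -0.04 (adjusted p = 0.485) on the log2 scale. Of the 8, 5 were lower, 2 did not pass and 1 was higher, Utf1 (log2 fold change 0.52, adjusted p = 0.000215). Dppa5a was the largest part of the sum, at means of 1663 and 1468 CPM per kb. The 6 trophectoderm markers summed to 24.0 to 26.3 and to 152 to 169, with means of 8.73 and 126 CPM for the keratin Krt8, 9.21 and 127 CPM for its partner Krt18 and 50.6 and 30.8 CPM for Tfap2c, whereas the lineage regulator Cdx2 had 0 counts in each WT library and 5, 8 and 17 in the Srrm2+/- libraries. Of the 6 trophectoderm markers, 3 were higher, Krt8, Krt18 and Eomes (log2 fold change 0.79, edgeR adjusted p = 0.0387 for Eomes), and Tfap2c was lower. Elf5 did not pass (-0.33, adjusted p = 0.419), and Cdx2 was too low to test. The 6 early mesoderm markers summed to 0.755 to 1.08 and to 1.86 to 2.14, with T at means of 0.383 and 1.42 CPM per kb. Only T passed among them, while Tbx6 and Mixl1 did not and the others were too low to test. The 6 primitive endoderm markers summed to 0.356 to 0.425 and 0.412 to 0.589, and only Dab2 passed, higher by 1.34 (adjusted p = 0.0112). The 6 neural progenitor markers summed to 2.49 to 2.72 and 2.24 to 2.28, mostly Pax6 at means of 2.32 and 1.89 CPM per kb. Sox1 and Pax3 had higher means in Srrm2+/- cells and did not pass. The 6 fibroblast markers summed to 0.831 to 0.909 and to 0.958 to 1.35, and 4 of them were higher, the collagens Col1a2 (0.197 and 2.96 CPM), Col3a1 (0.521 and 2.54) and Col1a1 (0.504 and 1.11) and Postn (0.103 and 0.742), while Thy1, the main part of the WT sum, was at 1.93 and 1.19 CPM (adjusted p = 0.0939). Postn had 8, 3 and 6 counts in the WT libraries, and Col1a2 had 6, 15 and 12. Postn and Col1a2 reached the filter on low counts only with the Srrm2+/- libraries. Their place among the 4 is a description and no test. The 6 endothelial markers summed to 15.4 to 15.9 and 11.3 to 12.2, nearly all of it Pecam1 at means of 88.8 and 65.8 CPM. Pecam1 (log2 fold change -0.43, edgeR adjusted p = 0.00013) and Tek (-0.59, adjusted p = 0.00536) were lower. Tie1 did not pass (-0.004, adjusted p = 0.994). Kdr was at 0.102 and 1.054 CPM (log2 fold change 3.34), Erg at 0 counts in all 6 libraries and Cdh5 at 1 count or none in each. Kdr had 9, 3 and 5 counts in the WT libraries and reached the filter on low counts through the Srrm2+/- libraries alone. Its rise is thus a description and no test. The part of these marker differences in the results on Eph and ephrin genes was not tested, and in bulk RNA fewer cells of a type and less RNA per cell cannot be told apart.

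All 9 genes passed the filter on low counts, and the lowest count of any of them in a library was 26. At an adjusted p of 0.05, 4 genes were higher in Srrm2+/- cells (Epha1, Epha2, Efnb1 and Efnb2), 2 were lower (Epha4 and Ephb2) and 3 did not pass (Ephb3, Ephb4 and Efna1), beside 13.6% of all tested genes higher and 11.7% lower. The 9 genes were chosen with earlier results of these data known, so their counts beside these shares are a description and no test. Among the 12068 genes whose log2 CPM averaged 1 or more, where 7 of the 9 lie, 32.5% passed in either direction. The values of the WT and Srrm2+/- libraries did not overlap for 7 of the 9 genes, beside 41.4% of all tested genes. The median log2 fold change of the 9 genes was -0.13 and that of all tested genes was -0.0025. A rise of at least 1 on the log2 scale was reached by 3 of the 9 genes, Epha1, Efnb1 and Efnb2, beside 4.3% of all tested genes, and a fall of that size by none of them, beside 1.8%, with Epha4 the lowest at -0.63.

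**Figure D1:**
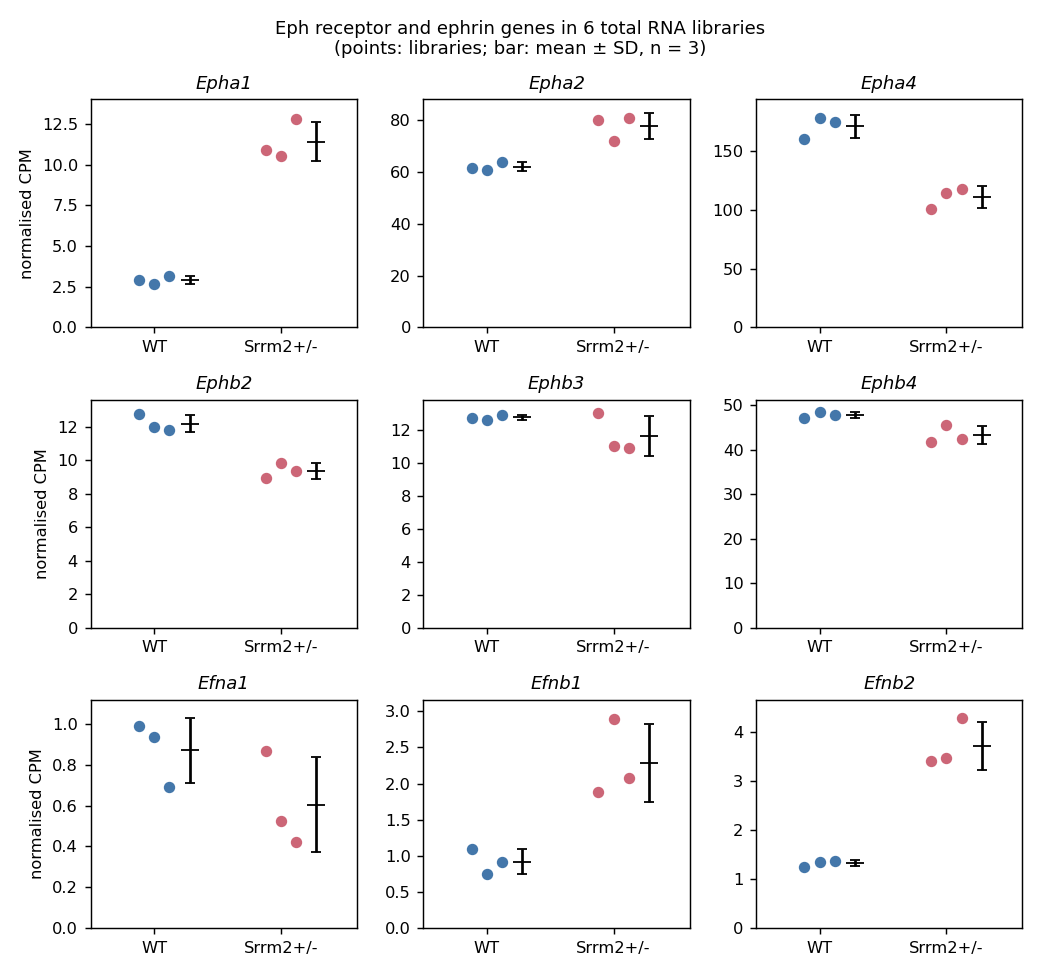
Normalised CPM (y axis, from 0, a scale of its own in each panel) of the 9 genes in the 3 WT libraries (blue) and 3 Srrm2+/- libraries (red), with the mean ± SD of each group as a bar. Epha1, Efnb1 and Efnb2 show the widest separation of the groups, Epha2, Epha4, Ephb2 and Ephb4 a narrower one, and the groups overlap for Ephb3 and Efna1.

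The EphA receptors moved in opposite directions. Epha1 was the first Eph receptor to be described and lies on chromosome 6 (GRCm38, chr6:42358487-42373268, minus strand). It was measured at 2.90, 2.68 and 3.15 CPM in WT cells and at 10.9, 10.6 and 12.8 CPM in Srrm2+/- cells. Every Srrm2+/- library was at least 3 times as high as every WT library, and the groups were far apart relative to their spread (2.91 ± 0.237 and 11.4 ± 1.23 CPM, SD, n = 3 each). Epha1 rose 3.93-fold (log2 fold change 1.97, SE 0.11, adjusted p = 6.01e-06), the largest change among the 9 genes. Epha1 overlaps the end of Zyx, which lies on the opposite strand and encodes zyxin, a protein of focal adhesions and actin fibres. Zyx was measured at 0.288, 0.311 and 1.36 CPM in WT cells and at 3.03, 2.89 and 4.63 CPM in Srrm2+/- cells, a log2 fold change of 2.43 (SE 0.51, adjusted p = 0.00788), or of 3.54 without WT replicate 3, its highest WT library (adjusted p = 0.000136, with 0.000136 to 0.033 over all alternatives). Of the 3950 words of 31 bases in the Epha1 transcripts, 175 (4.43%) also occur in Zyx transcripts and 207 (5.24%) in the pseudogene 2010010A06Rik, read without regard to strand. The strand setting of the count was not given in the sources used here, so reads from the shared stretch could not be assigned to Epha1 or Zyx with certainty. The gene 2010010A06Rik itself was at a log2 fold change of -0.51 (SE 0.33, adjusted p = 0.314).

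Epha2, a receptor of epithelial cells that is present in the early embryo, lies on chromosome 4 (chr4:141301240-141329384, plus strand). Its level was 61.3, 60.5 and 63.8 CPM in WT cells and 80.0, 71.9 and 80.8 CPM in Srrm2+/- cells. The lowest Srrm2+/- library, replicate 2, was above the highest WT library, and the group means were 61.9 ± 1.68 and 77.6 ± 4.93 CPM (SD, n = 3 each). Epha2 rose 1.25-fold (log2 fold change 0.33, SE 0.05, adjusted p = 0.00201), a small change measured at high counts, with between 3403 and 5538 estimated counts in each library. Because Epha1 and Epha2 both rose, the 250 bases before the RefSeq start of each are shown, 5′ to 3′ on the strand of the gene, with the letters CATTCC on either strand in capitals. The windows are chr6:42373269-42373518 for Epha1 and chr4:141300971-141301220 for Epha2 (RefSeq, GRCm38.p6), and they show the reference genome, not the ESC line.
Epha1: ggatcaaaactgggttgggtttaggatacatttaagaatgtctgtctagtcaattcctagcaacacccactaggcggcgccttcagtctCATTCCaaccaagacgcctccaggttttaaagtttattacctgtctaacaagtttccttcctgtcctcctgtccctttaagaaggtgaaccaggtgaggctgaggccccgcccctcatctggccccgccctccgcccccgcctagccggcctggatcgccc
Epha2: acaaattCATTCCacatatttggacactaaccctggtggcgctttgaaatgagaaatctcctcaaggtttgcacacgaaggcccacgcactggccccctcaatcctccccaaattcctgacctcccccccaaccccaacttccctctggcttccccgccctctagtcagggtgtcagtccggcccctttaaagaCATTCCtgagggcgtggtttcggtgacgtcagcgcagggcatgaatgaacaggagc

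Epha4, known for axon guidance and for its wide choice of ligands, lies on chromosome 1 (chr1:77367185-77515088, minus strand). WT cells had 160.3, 178 and 175 CPM of Epha4, against 101, 114 and 118 CPM in Srrm2+/- cells. All Srrm2+/- libraries were below all WT libraries, with means of 171 ± 9.56 and 111 ± 9.15 CPM (SD, n = 3 each). Epha4 fell by 0.63 on the log2 scale (SE 0.07, adjusted p = 0.000197), to 0.648 times its WT level. The fall in Epha4 and the rise in Epha2 changed the order of the receptors. Per kb of exon length, the ratio of Epha2 to Epha4 was 0.659, 0.585 and 0.628 in WT cells and 1.37, 1.08 and 1.18 in Srrm2+/- cells. Epha4 was thus the more abundant transcript in each WT library and Epha2 in each Srrm2+/- library. The exact permutation test of the ratio gave p = 0.1 (two-sided), the smallest value that 3 libraries against 3 allow, and the ratio crossed 1 in the same way with the length of the longest transcript (0.586 ± 0.0348 and 1.14 ± 0.137, SD, n = 3 each).

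The EphB receptors were lower or did not pass the test. Ephb2, a receptor of axon guidance and of cell sorting in the gut, lies on chromosome 4 (chr4:136647539-136835988, minus strand). It was measured at 12.8, 11.99 and 11.8 CPM in WT cells and at 8.93, 9.86 and 9.35 CPM in Srrm2+/- cells. The groups did not overlap (12.2 ± 0.522 and 9.38 ± 0.466 CPM, SD, n = 3 each), and Ephb2 fell by 0.38 on the log2 scale (SE 0.07, adjusted p = 0.0050). Ephb3, which acts with Ephb2 in the gut and in commissural axons, lies on chromosome 16 (chr16:21204755-21223305, plus strand). Its values were 12.7, 12.6 and 12.9 CPM in WT cells and 13.0, 10.98 and 10.9 CPM in Srrm2+/- cells. Srrm2+/- replicate 1 was above all WT libraries and the other two were below them, so the groups overlapped. The log2 fold change of Ephb3 was -0.13 (SE 0.08, adjusted p = 0.296), with a 95% interval from -0.31 to 0.06.

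Ephb4, the receptor of venous endothelium that binds ephrin-B2, was the most abundant EphB receptor in both lines (chr5:137350109-137378669, plus strand). It was measured at 47.2, 48.5 and 47.9 CPM in WT cells and at 41.8, 45.5 and 42.5 CPM in Srrm2+/- cells. The groups did not overlap (47.8 ± 0.647 and 43.3 ± 1.98 CPM, SD, n = 3 each), but the highest Srrm2+/- library, replicate 2, was close to the lowest WT library. The log2 fold change of -0.14 (SE 0.05, 95% interval -0.25 to -0.04) missed the threshold at an adjusted p of 0.0511. Without Srrm2+/- replicate 2 it was -0.18 (adjusted p = 0.0329), and over 14 alternatives the adjusted p lay between 0.0329 and 0.157, passing in 3 of them.

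Among the ligands, both ephrin-B genes of the set rose and the ephrin-A gene did not pass the test. Efna1, an ephrin induced by inflammatory signals in endothelium, had the lowest counts of the 9 genes (chr3:89271733-89281142, minus strand). It had 55, 54 and 37 estimated counts in WT cells and 60, 36 and 26 in Srrm2+/- cells, which is 0.991, 0.934 and 0.691 CPM and 0.867, 0.522 and 0.421 CPM. The groups overlapped, and the log2 fold change of -0.53 had an SE of 0.31 (adjusted p = 0.256) and a 95% interval from -1.22 to 0.17.

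Efnb1 encodes an X-linked ephrin that is required for craniofacial and skeletal development (chrX:99136130-99148991, plus strand). It was measured at 1.10, 0.744 and 0.915 CPM in WT cells and at 1.88, 2.90 and 2.08 CPM in Srrm2+/- cells. Each Srrm2+/- library was above each WT library, and replicate 2 was the highest of them (0.919 ± 0.178 and 2.28 ± 0.542 CPM, SD, n = 3 each). Efnb1 rose 2.48-fold (log2 fold change 1.31, SE 0.23, adjusted p = 0.00313). Efnb2, the ephrin of arterial endothelium and the partner of Ephb4, lies on chromosome 8 (chr8:8617434-8661242, minus strand). Efnb2 stood at 1.24, 1.35 and 1.36 CPM in WT cells and at 3.40, 3.47 and 4.28 CPM in Srrm2+/- cells. The groups did not overlap and were narrow relative to the difference (1.32 ± 0.0654 and 3.71 ± 0.491 CPM, SD, n = 3 each). Efnb2 rose 2.82-fold (log2 fold change 1.49, SE 0.15, adjusted p = 0.000156). As both ephrin-B genes rose, their windows are shown in the same way, chrX:99135811-99136060 for Efnb1 and chr8:8661243-8661492 for Efnb2. The Efnb2 match, GGAATG, is CATTCC read on the other strand, and the Efnb1 window held none.
Efnb1: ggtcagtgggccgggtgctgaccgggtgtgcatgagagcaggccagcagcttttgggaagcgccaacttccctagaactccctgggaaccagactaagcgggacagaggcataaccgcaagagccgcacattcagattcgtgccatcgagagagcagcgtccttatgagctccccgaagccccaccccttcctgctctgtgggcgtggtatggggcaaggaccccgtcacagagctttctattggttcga
Efnb2: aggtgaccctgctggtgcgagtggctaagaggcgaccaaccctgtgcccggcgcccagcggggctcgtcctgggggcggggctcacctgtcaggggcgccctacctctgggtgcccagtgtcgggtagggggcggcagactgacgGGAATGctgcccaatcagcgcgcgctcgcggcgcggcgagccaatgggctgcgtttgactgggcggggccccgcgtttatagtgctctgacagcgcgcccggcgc

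The motifs searched in the 250 bases before each start, on both strands, were CATTCC, the core of sites bound by TEAD factors, TGANTCA, bound by AP-1, CTTTGAA and CTTTGAT, bound by TCF factors, and the CArG box bound by SRF. CATTCC was found in 3 of the 9 genes, beside 12.6% of 32851 promoter windows of all genes. It began 161 bases before the start in Epha1, 243 and 56 bases before the start in Epha2, and 105 bases before the start in Efnb2. All 3 of these genes were among the 4 that rose, and the windows of the 12 other Eph and ephrin genes with an entry held it in 1 case, Epha3. A TCF match was found in 1 of the 9 genes, Epha2 (7.48% of all windows), and no TGANTCA match or CArG box in any of them (6.75% and 1.47% of all windows). In Epha2 the TCF match lay apart from the CATTCC matches, and a match to 6 letters is a description of these windows and not evidence of binding. The windows of the 4 genes that rose had a GC content of 54.4% in Epha1, 55.6% in Epha2, 60.0% in Efnb1 and 72.0% in Efnb2, and those of the other genes of the set had 64.0% to 68.4%.

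Of the 13 other genes of the family, 11 were tested, of which 3 were higher, none was lower and 8 did not pass, with 25.3% of all tested genes passing. At an unadjusted p under 0.05, 2 of them were lower in the edgeR test (Efna3 and Efnb3), and DESeq2 and limma voom also called 0 lower. Epha7, a receptor of the developing nervous system, was at 10.9, 11.4 and 10.7 CPM in WT cells and at 15.7, 17.9 and 16.6 CPM in Srrm2+/- cells, and rose by 0.60 on the log2 scale (SE 0.07, adjusted p = 0.000315). Efna5, a ligand known from the retinal map, was at 0.432, 0.294 and 0.261 CPM and at 1.44, 1.61 and 1.43 CPM, and rose by 2.17 (SE 0.24, adjusted p = 0.000244). Epha6 had 1, 0 and 1 counts in the WT libraries and 21, 14 and 14 in the Srrm2+/- libraries, a ratio of 20.5 after scaling with a 95% counting interval from 5.37 to 174. It reached the filter on low counts through the Srrm2+/- libraries alone, so its place among the 3 higher genes is a description and no test, and 2 remain without it. Epha3 did not reach that filter, with 0, 0 and 2 counts in WT cells and 7, 18 and 9 in Srrm2+/- cells (ratio 14.2, 95% counting interval 3.64 to 122), and Ephb1 had between 0 and 6 counts in any library. The counting intervals cover counting error only. Ephb6 (log2 fold change 0.81, adjusted p = 0.0642) and Efna3 (-0.29, adjusted p = 0.0605) were close to the threshold, and both passed without Srrm2+/- replicate 1 (1.02, adjusted p = 0.0293, and -0.37, adjusted p = 0.0303). Ephb6 also passed with the replicate number as a block (0.79, adjusted p = 0.0342), and over all alternatives the adjusted p ran from 0.0293 to 0.218 for Ephb6 and from 0.0303 to 0.182 for Efna3. The remaining 6 were Efnb3 at -0.58 (adjusted p = 0.133), Epha8 at 0.61 (0.264), Epha5 at -0.21 (0.593), Epha10 at 0.09 (0.792), Efna2 at 0.20 (0.382) and Efna4 at -0.0023 (0.991). Antisense genes share 10.5% of the words of Efna3 and 8.80% of those of Efna4, and they were themselves low, at means of 0.192 and 0.166 CPM for Gm15998 beside Efna3 and of 0.587 and 0.507 CPM for 4731419I09Rik beside Efna4.

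**Figure D2:**
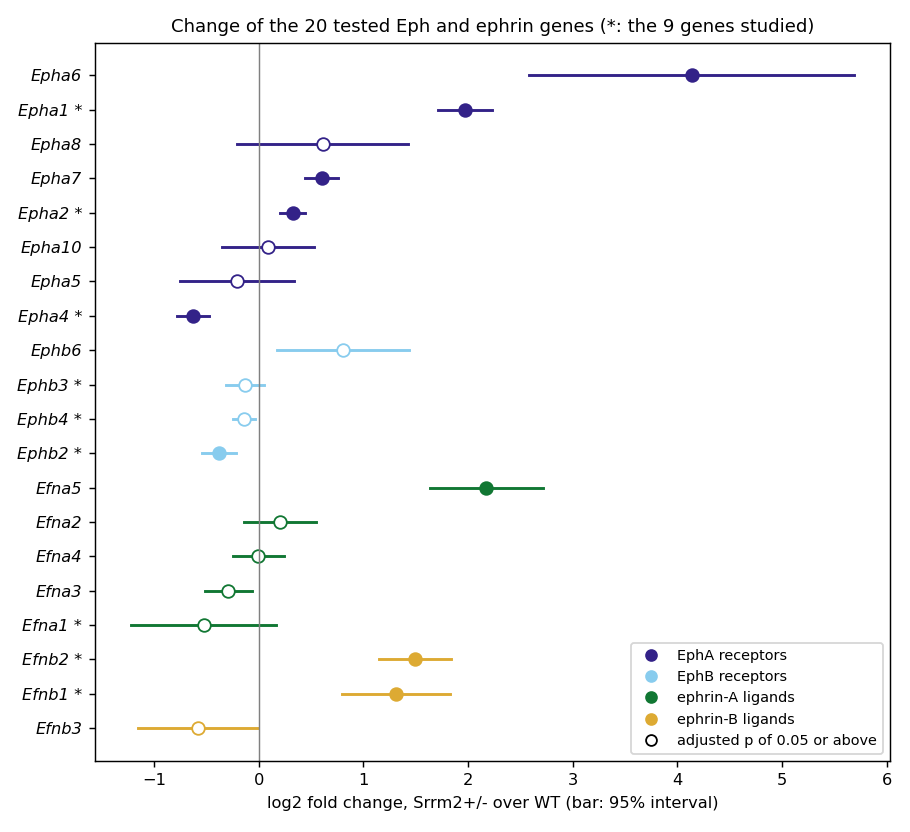
Log2 fold change of the 20 tested Eph and ephrin genes in Srrm2+/- over WT cells (x axis), grouped by class, with 95% intervals as bars and filled points for genes with an adjusted p under 0.05. Filled points lie to the right of 0 for Epha6, Epha1, Epha7, Epha2, Efna5, Efnb2 and Efnb1, and to the left for Epha4 and Ephb2. Epha6 had 2 counts in all in WT cells.

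Levels were compared between genes per kb of exon length. In WT cells the receptors Epha4 (21.3 ± 1.19 CPM per kb), Epha2 (13.2 ± 0.359) and Ephb4 (10.3 ± 0.140) were the 3 most abundant of the 22 genes, with no overlap between neighbours. In Srrm2+/- cells the same 3 genes led in the order Epha2 (16.6 ± 1.06), Epha4 (13.8 ± 1.14) and Ephb4 (9.33 ± 0.427), again with no overlap between neighbours. Epha1 moved from rank 10, where its values overlapped those of Efnb3, to rank 6, where they overlapped those of Efna3. Efnb1 and Efnb2 held ranks 13 and 15 in WT cells, where the values of each overlapped those of Ephb6 at rank 14. In Srrm2+/- cells Efnb1 and Efnb2 held ranks 11 and 12 and overlapped each other, and Efnb1 also overlapped Ephb2. Efna1 went from rank 12 to rank 16, with values that overlapped those of Efnb3 in WT cells and Efna5 in Srrm2+/- cells.

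Summed over each class, the EphA receptors came to 35.2, 37.2 and 37.5 CPM per kb in WT cells and to 34.4, 34.5 and 37.2 in Srrm2+/- cells (36.6 ± 1.26 and 35.4 ± 1.62, SD, exact permutation p = 0.3). The total of the class thus overlapped between the lines, while its make-up differed. Epha4 made up 58.0% ± 1.48 of the EphA total in WT cells and 38.9% ± 2.40 in Srrm2+/- cells, Epha2 made up 36.2% ± 1.24 and 47.0% ± 2.66, and Epha1 made up 2.03% ± 0.165 and 8.22% ± 0.503 (SD, n = 3). The shares of all 3 genes did not overlap between the groups (exact permutation p = 0.1 each, the smallest that 3 against 3 allow). The EphB receptors came to 13.4 ± 0.137 and 12.2 ± 0.372 CPM per kb, with no overlap (exact permutation p = 0.1), and Ephb4 held 76.9% ± 0.308 and 76.4% ± 1.16 of that total.

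The ephrin-A ligands came to 10.8 ± 0.486 CPM per kb in WT cells and 10.5 ± 0.681 in Srrm2+/- cells (exact permutation p = 0.7), and Efna1 was 4.43% ± 0.845 and 3.11% ± 1.03 of that total. The ephrin-B ligands were the least abundant class and had the largest relative difference. They came to 0.958, 1.20 and 0.945 CPM per kb in WT cells and to 1.45, 1.79 and 1.53 in Srrm2+/- cells. Every Srrm2+/- library was above every WT library, with a ratio of the means of 1.54 (exact permutation p = 0.1). Efnb3, which is not among the 9 genes, made up 54.8% ± 9.43 of the ephrin-B total in WT cells and 24.2% ± 4.28 in Srrm2+/- cells, and Efnb1 and Efnb2 together made up the rest. The share of Efnb1 was 26.4% ± 7.72 and 41.3% ± 4.998, and that of Efnb2 was 18.8% ± 2.29 and 34.5% ± 6.32. All 14 receptors together came to 50.04 ± 1.39 and 47.6 ± 1.54 CPM per kb (exact permutation p = 0.2), and all 8 ephrins to 11.8 ± 0.620 and 12.1 ± 0.708 (exact permutation p = 1.0).

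**Figure D3:**
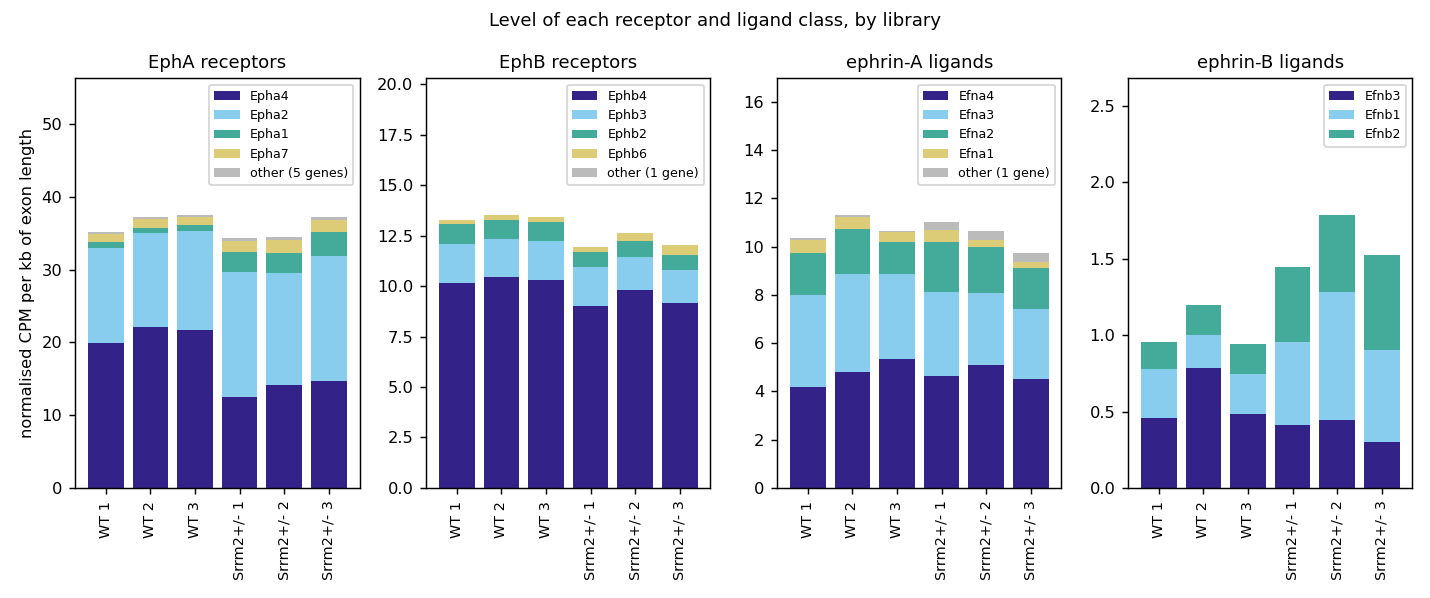
Summed level of each class in CPM per kb of exon length (y axis, from 0, a scale of its own in each panel) in the 6 libraries, with the contribution of each gene stacked. The EphA bars keep a similar height while the Epha4 segment shrinks and the Epha2 and Epha1 segments grow in the Srrm2+/- libraries, and the ephrin-B bars are higher in all 3 Srrm2+/- libraries.

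Genes that carry the signal onward were read from the same fit. Of 36 forward signalling genes (exchange factors, adaptors, kinases and small GTPases downstream of the receptors), 35 were tested, and 12 were higher, 4 were lower and 19 did not pass, with a median log2 fold change of 0.03, beside 13.6% of all tested genes higher and 11.7% lower. Arhgef16, an exchange factor, rose by 0.75 (SE 0.09, adjusted p = 0.000405), Ptk2, the focal adhesion kinase, by 0.45 (SE 0.07, adjusted p = 0.00187), Inppl1, the lipid phosphatase SHIP2 that binds Epha2, by 0.44 (SE 0.06, adjusted p = 0.000632) and the GTPase Rac1 by 0.33 (SE 0.06, adjusted p = 0.00433). The Src family kinase Yes1 fell by 0.65 (SE 0.04, adjusted p = 1.33e-05), the Rac exchange factor Tiam1 by 0.58 (SE 0.07, adjusted p = 0.000598) and the Rac inactivator Chn2 by 0.50 (SE 0.11, adjusted p = 0.0117).

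All 10 reverse signalling genes, mostly proteins that bind the tail of ephrin-B ligands, were tested, and 7 were higher, none was lower and 3 did not pass, with a median log2 fold change of 0.40, beside 13.6% of all tested genes higher and 11.7% lower. None was lower at an unadjusted p under 0.05 in the edgeR test or by DESeq2 or limma voom either. Grip1, a scaffold with PDZ domains, rose by 2.08 (1.81 ± 0.309 to 7.65 ± 0.694 CPM, SE 0.15, adjusted p = 1.95e-05). The phosphatase Ptpn13 rose by 1.12 (10.9 ± 0.457 to 23.7 ± 2.21 CPM, SE 0.08, adjusted p = 1.81e-05), Rgs3, a brake on G protein signalling, by 0.53 (SE 0.09, adjusted p = 0.00344) and the adaptor Nck2 by 0.26 (SE 0.06, adjusted p = 0.00888). Of 13 genes for cleavage and switch-off of the receptors and ligands, 12 were tested, and 2 were higher, the phosphatases Ptpn11 (0.21, SE 0.04, adjusted p = 0.00887) and Ptpn1 (0.15, SE 0.05, adjusted p = 0.0414), none was lower and 10 did not pass, with a median of 0.04, so that 16.7% passed beside 25.3% of all tested genes. At an unadjusted p under 0.05, 2 of these were lower in the edgeR test (Cbl and Rhbdl2), DESeq2 called 0 lower, and limma voom called Cbl, a ubiquitin ligase that switches off receptor tyrosine kinases, at -1.60 (adjusted p = 0.0331), beside -1.26 (adjusted p = 0.0908) in edgeR. Cbl had 34, 199 and 75 counts in the Srrm2+/- libraries, and without replicate 2 it passed in edgeR at -2.11 (adjusted p = 0.00537).

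As a yardstick, 44 other receptor tyrosine kinases were read in the same way, and of 37 tested 15 were higher, 3 were lower and 19 did not pass, with a median of 0.25, beside 25.3% of all tested genes passing. Among the 15, Kdr had 9, 3 and 5 counts in the WT libraries, Flt1 had 20, 9 and 7 and Fgfr3 had 18, 10 and 1. Kdr, Flt1 and Fgfr3 reached the filter on low counts only with the Srrm2+/- libraries. Their place among the 15 is a description and no test. Axl rose by 2.36 (SE 0.12, adjusted p = 2.90e-06), the epidermal growth factor receptor Egfr by 1.94 (SE 0.08, adjusted p = 1.45e-06), the collagen receptor Ddr1 by 1.34 (SE 0.08, adjusted p = 5.91e-06) and the pseudokinase Ptk7 by 0.66 (SE 0.04, adjusted p = 1.24e-05). The stem cell factor receptor Kit fell by 0.79 (SE 0.06, adjusted p = 2.17e-05), the angiopoietin receptor Tek by 0.59 (SE 0.11, adjusted p = 0.00536) and Tyro3 by 0.39 (SE 0.04, adjusted p = 0.000164). The 6 Eph receptors of the set had 2 higher, 2 lower and 2 that did not pass. They stood beside 48.6% of other receptor tyrosine kinases that passed, Kdr, Flt1 and Fgfr3 included. The difference between the lists was not tested.

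**Figure D4:**
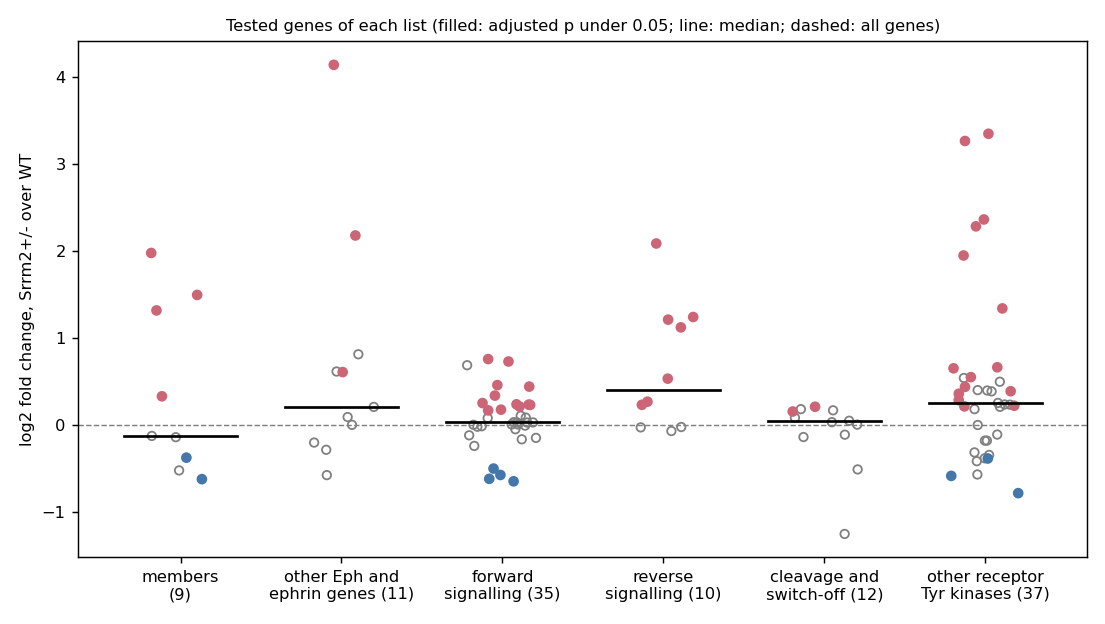
Log2 fold change in Srrm2+/- over WT cells (y axis) of each tested gene of the 9 Eph and ephrin genes, the other genes of the family and the 4 lists of related genes, with the number tested in brackets. Filled points have an adjusted p under 0.05 (red higher, blue lower), black lines are medians and the dashed line is the median of all tested genes. The reverse signalling list has the highest median, 0.40, and the 9 genes have one of -0.13.

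For the 3 genes that rose by at least 1 on the log2 scale, the genes with the most similar pattern over the 6 libraries were taken from 12021 genes outside the family, by the root mean square difference of their centred log2 CPM. The nearest to Epha1 were Car2 (0.0405), Capn2 (0.115) and the non-coding gene Platr12 (0.12). The nearest to Efnb1 were Fzd2 (0.11), Fermt1 (0.126) and Faxc (0.144), and the nearest to Efnb2 were the antisense gene A930024E05Rik (0.063), Fjx1 (0.0735) and F2r (0.081). The 6 libraries fall into 2 groups, so this measure mostly ranks genes by the size of their difference between the lines, and Car2 (log2 fold change 1.95) and F2r (1.56) differed from WT about as much as Epha1 and Efnb2 did.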

How the data were processed

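Strand-specific total RNA libraries were sequenced as paired ends. Spike-ins were added to the RNA and are not used here. Reads had been quantified by the authors with Kallisto 0.46.1 on GENCODE M24 transcripts (mm10), and the deposited table holds estimated counts per gene, not normalised. The strand setting is not given in the sources used here.

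Groups and replicate numbers came from the sample titles. Replicates were thawed from independent batches of each line, per the methods. Pairs of replicates differed by more than counting noise (chi-square per degree of freedom 14.7 or more). Estimated counts were rounded. Symbols, positions and exon lengths came from GENCODE M21 (GRCm38), which matched 42156 of 42450 identifiers. After filterByExpr (minimum count 10, minimum total 15), 18905 genes were compared with the quasi-likelihood test of edgeR 4.0.16 (R 4.3.3), with TMM scaling, genotype as the only term and Benjamini-Hochberg adjustment over all of them. Levels between genes were CPM per kb of merged exons, and sums, shares and ratios were compared with the two-sided exact permutation test (scipy 1.17.1). Words of 31 bases shared between transcripts were counted on either strand. The test was checked on simulated data.

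The 9 genes and all lists were chosen with earlier results of these data known. Named genes were Srrm2, the 9 genes, the other family genes, the 4 largest rises and falls of each list among genes that passed and averaged 1 or more in log2 CPM, and the 3 genes nearest in pattern to each of the 9 that passed with a change of 1 or more. Zyx, 2010010A06Rik, Cbl, Rhbdl2, Gm15998, 4731419I09Rik and the markers were named after their values were seen. Alternatives were RLE and upper quartile scaling, DESeq2 1.42.0, limma voom (limma 3.58.1), other filters on low counts, removal of short, ribosomal and mitochondrial genes, stricter call rules, a replicate block and leaving out each library. Deviations of same-numbered libraries of the 2 lines correlated at -0.03 for each number, which gives no sign of pairing.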

Additional observations from a re-analysis of the deposited data

How the results depend on the processing

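The 6 of the 9 genes that passed did so in the same direction under all 14 alternatives run for each (Epha1 1.88 to 2.03, Epha2 0.30 to 0.38, Epha4 -0.67 to -0.56, Ephb2 -0.41 to -0.34, Efnb1 1.10 to 1.46 and Efnb2 1.38 to 1.55 on the log2 scale), and Ephb3 and Efna1 passed under none. Efna1 was not tested under the filter of 1 CPM in every library of a group. Ephb4 passed at -0.15 with RLE scaling, at -0.15 with short, ribosomal and mitochondrial genes removed and without Srrm2+/- replicate 2, with -0.18 to -0.12 on leaving out each library. With a limit of 1 on the absolute log2 fold change, 3 of the 9 genes passed and 1153 genes in all, and at an adjusted p under 0.01, 2779 genes did, beside 4781. Without Srrm2+/- replicate 1, 5 other family genes passed (3 to 5 on leaving out each library). Of the cleavage and switch-off genes, 1 passed with DESeq2, with the filter of 1 count and with the replicate block, and 1 to 2 on leaving out each library. Ptpn1 was lost in all of these and in each of the 6 that leave out a library, where Ptpn11 stayed called, and the second call without Srrm2+/- replicate 2 was Cbl, lower at -2.11. Of the other family genes, 4 passed with the filter of 1 count, Epha3 included (3.61, adjusted p = 0.0284), and 2 with that of 1 CPM, which leaves out Epha6. Signs turned for genes near 0 that did not pass, Epha5 to 0.056 without WT replicate 2 (-0.34 to 0.056 on leaving out each library), Epha10 to -0.019 without Srrm2+/- replicate 2 (-0.019 to 0.19) and Efna4 to 0.0029 with upper quartile scaling, 0.0056 with limma voom, 0.0035 and 0.0046 with the filters of 1 count and 1 CPM, 0.0025 with the replicate block and -0.090 to 0.086 on leaving out each library.

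With the replicate block, 4166 genes passed and 6 of the 9 Eph and ephrin genes did, in the same directions. Among the 9 genes, the other family genes and the largest rises and falls named from each list, it changed the call of Ptpn1 and Ephb6 only. The numbers pair no samples by design, and the correlation of same-numbered libraries was -0.03 for each. The low counts of Epha3, Epha6 and Ephb1 limit what can be said of them.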
